A study of Homo sapiens with 8 samples.

Results

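Cytosolic ribosomal protein genes were read from the deposited expression tables of a human mammary epithelial cell line under chemical inhibition of SUMO conjugation. Members were the rows that carried 1 gene symbol, listed 1 time in each table, whose symbol had the form of a large-subunit (RPL), stalk (RPLP) or small-subunit (RPS) protein of the cytosolic ribosome, or was RPSA. This gave 77 genes, 49 with large-subunit and 28 with small-subunit names, of 43717 single-symbol genes in the MCF10A table and 43751 in the other. A gene counted as measured when it reached at least 1 FPKM (fragments per kilobase of transcript, scaled to the mapped total of the library) in either group of a table. 2 members, RPL10L among them, did not reach it, so 75 members had a ratio in each line.

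Total RNA had been sequenced from 8 samples of established cell lines, 2 in each of 4 groups. MCF10A is a non-tumorigenic, immortalized human breast epithelial line. The second line is described in the labels as MCF10A with an overexpressed intracellular domain of NOTCH1, but not by which promoter or in how many clones. Both lines grew in the same medium with horse serum, insulin, cholera toxin, epidermal growth factor and hydrocortisone, and were given either the solvent DMSO or ginkgolic acid, an inhibitor of SUMO conjugation, at 30 µM for 3 days. The labels do not say whether the 2 samples of a group came from separate cultures.

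Each table held 1 value per gene and group. The values below therefore come without replicate error, none of the differences could be tested, and how deeply the samples were sequenced is unknown. "Higher" and "lower" describe the deposited values alone, and a threshold of 2-fold (a log2 ratio of 1 or more, or -1 or less) stands in place of a test. NOTCH1 was at 5.03 FPKM in the DMSO group of the second line and at 11.4 FPKM in that of MCF10A. Ginkgolic acid groups had 12.4 and 6.18 FPKM. Since the DMSO order is opposite to the label, the line is called NOTCH1-labelled here. Markers of epithelium summed to 323 to 853 FPKM in the 4 groups, the 6 of 8 basal mammary epithelial markers with a row in both tables to 343 to 561 FPKM, and those of hormone-sensing luminal cells to 4.89 to 10.1 FPKM. Fibroblast markers summed to 19.0 to 70.9 FPKM, and markers of leukocytes, endothelium and erythroid cells to at most 17.6 FPKM in any group. The part of these differences in the results was not tested.

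Each cytosolic ribosome is built from 1 small and 1 large subunit, and the small subunit reads the messenger RNA while the large subunit forms peptide bonds. Ribosomal protein messenger RNAs are among the most abundant in dividing cells. They share a short pyrimidine tract at their first bases, the 5′ TOP motif, through which their translation follows growth signals via mTORC1 and LARP1. Many of their introns encode small nucleolar RNAs (snoRNAs), which guide the methylation (C/D box class) or pseudouridylation (H/ACA class) of ribosomal RNA and are cut out of the spliced introns.

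In MCF10A, nearly all members had lower values with ginkgolic acid, most of them by little. The median log2 ratio of ginkgolic acid over DMSO was -0.39, a level lower by 1.31-fold, and 69 of 75 members lay below 0. In bulk RNA, a change in the makeup of the culture and a change in RNA per cell cannot be told apart. Over all 17738 genes with a ratio the median was 0.07 and 47.7% lay below 0. At least 2-fold lower were 9 members, while 15.2% of all genes were. RPL39L alone was at least 2-fold higher, against 24.3% of all genes. Of the 1198 genes with at least 100 FPKM in either group, 61% lay below 0, with a median of -0.19 and with 13.1% at least 2-fold lower. At 1.5-fold, 17 members were lower, against 26.7% of all genes, and 2 higher, against 34.1%.

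In the NOTCH1-labelled line the members were split around 0. Their median log2 ratio was 0.05, with 42 above 0 and 33 below. Below 0 lay 47.8% of all 19607 genes. At least 2-fold lower were 8 members, against 18.9% of all genes, and 0 were at least 2-fold higher, against the same 18.9%. Genes with at least 100 FPKM in either group had a median of 0.36 in this line, with 30.1% below 0 and 7.09% at least 2-fold lower. At 1.5-fold, 10 members were lower, against 29% of all genes, and 2 higher, against 31.2%. The sign of the members' median in this line depended on the centring. Genes that reached 1 FPKM in both groups had a median log2 ratio of -0.11 in MCF10A (13100 genes) and 0.14 in the NOTCH1-labelled line (14479 genes), and relative to these the members' medians were -0.29 and -0.09.

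**Figure D1:**
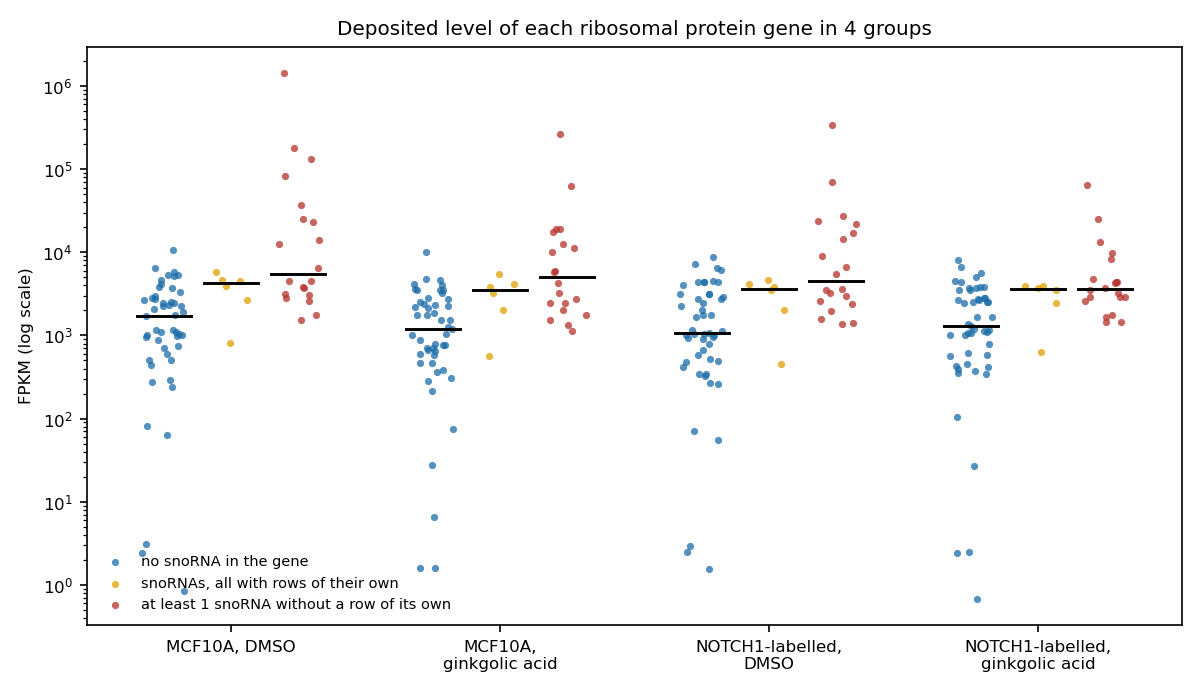
Deposited FPKM (log scale) of 75 ribosomal protein genes in the 4 groups, 1 point per gene, with a bar at the median of each class. Genes that hold no snoRNA reached 10623 FPKM at most, while RPL7A, RPL13A and RPL23A, with snoRNAs that have no row of their own, lay at 82505 FPKM or more in MCF10A with DMSO.

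Members that hold snoRNAs had the highest values. GENCODE release 29 places 54 snoRNAs, 35 of the C/D class and 18 of the H/ACA class, inside 26 of the 77 members, and 51 members hold none. RF01159 in RPL4 carries the name of neither class and covers nearly the same bases as SNORD18B. The counts keep both entries. The 26 host genes made up 94.9% of the summed FPKM of all members in MCF10A with DMSO, 84.4% with ginkgolic acid, and 85.3% and 65.0% in the NOTCH1-labelled line. A snoRNA counted as having its own row where a row carried its symbol and the locus of the host row, which held for 12. For the other 42, the tables do not separate fragments of the snoRNA from those of its host messenger RNA. The part of snoRNA fragments in the host values was not tested. Hosts and other members are therefore described apart.

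Members that hold no snoRNA are described first, without the paralogue genes. Of these 42 genes 1 lay below the minimum, which left 41. In MCF10A, 40 of the 41 were lower with ginkgolic acid, and 0 were beyond 2-fold in either direction. The median was -0.34, with a range of -0.71 to 0.05 and a standard deviation of 0.18 over genes. Their summed level was 105033 FPKM with DMSO and 85994 with ginkgolic acid, 1.22-fold lower. In the NOTCH1-labelled line 28 of the 41 were above 0, the median was 0.12 and the range -0.31 to 0.70. The sum was 98916 FPKM with DMSO and 99163 with ginkgolic acid, a log2 ratio of 0.0036. The 24 large-subunit genes had medians of -0.33 and 0.07 in the 2 lines, and the 17 small-subunit genes -0.39 and 0.15.

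Among the large-subunit genes, RPL6 had the lowest ratio in MCF10A, at 1166 FPKM with DMSO and 711 with ginkgolic acid (log2 ratio -0.71). In the NOTCH1-labelled line it was at 1152 and 998 FPKM (-0.21), so RPL6 was lower with ginkgolic acid in both lines. RPL8, which lies close to the peptidyl transferase centre, was at 2459 FPKM with DMSO and 1854 with ginkgolic acid in MCF10A (-0.41), and at 1646 and 2679 FPKM in the NOTCH1-labelled line (0.70). It had the highest ratio of the 41 genes in the NOTCH1-labelled line and lay below 0 in MCF10A. RPL35, a protein at the rim of the exit tunnel, was at 1893 and 1527 FPKM in MCF10A (-0.31) and at 1767 and 2492 FPKM in the NOTCH1-labelled line (0.50). RPL9 was at 1087 and 774 FPKM in MCF10A (-0.49), and at 970 and 1306 FPKM in the NOTCH1-labelled line (0.43). RPL22, which also binds RNA outside the ribosome, went the other way, at 2282 and 2359 FPKM in MCF10A (0.05) and at 2928 and 2551 FPKM in the NOTCH1-labelled line (-0.20). It was the 1 gene of the 41 that was above 0 in MCF10A and below 0 in the other line, while 28 genes showed the opposite pair of signs and 12 lay below 0 in both.

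The stalk proteins RPLP0, RPLP1 and RPLP2 recruit the elongation factors to the large subunit. RPLP0, often used as a reference gene in quantitative PCR, was at 2687 FPKM with DMSO and 2154 with ginkgolic acid in MCF10A (-0.32), and at 1996 and 2465 FPKM in the NOTCH1-labelled line (0.30). RPLP1 was at 1161 and 1020 FPKM in MCF10A (-0.19) and at 1015 and 1388 FPKM in the NOTCH1-labelled line (0.45). RPLP2, which holds the H/ACA snoRNA SNORA52, was at 6511 and 5808 FPKM (-0.16) and at 3483 and 4831 FPKM (0.47). The 3 stalk genes thus had the same pair of signs, lower with ginkgolic acid in MCF10A and higher in the NOTCH1-labelled line. This pair was found in 39 of all 75 members, so it is not particular to the stalk.

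Of the 17 small-subunit genes, 17 lay below 0 in MCF10A and 12 above 0 in the NOTCH1-labelled line. Of genes with at least 100 FPKM in either group, 61% lay below 0 in MCF10A and 986 of 1410 above 0 in the NOTCH1-labelled line. RPS19, the gene most often mutated in Diamond-Blackfan anaemia, was at 2324 FPKM with DMSO and 1534 with ginkgolic acid in MCF10A (-0.60), and at 1145 and 1670 FPKM in the NOTCH1-labelled line (0.54). RPS14, whose loss underlies the anaemia of the 5q- syndrome, was at 503 and 384 FPKM in MCF10A (-0.39) and at 346 and 425 FPKM in the NOTCH1-labelled line (0.30). RPS6, the substrate of the S6 kinases, was at 3317 and 2765 FPKM (-0.26) and at 3122 and 3831 FPKM (0.30). All 3 lay below 0 in MCF10A and above 0 in the NOTCH1-labelled line. RPS16 had the lowest ratio of these small-subunit genes in MCF10A, at 445 and 284 FPKM (-0.65), and was at 324 and 341 FPKM in the NOTCH1-labelled line (0.08). RPS9, which binds the ribosomal RNA early in assembly, had the ratio nearest to 0 among them in MCF10A, at 1049 and 1031 FPKM (-0.02), and was at 793 and 1082 FPKM in the other line (0.45). RPS25 had the highest level of all members without a snoRNA in each group, at 10623 and 10147 FPKM in MCF10A (-0.07) and 8759 and 8008 FPKM in the NOTCH1-labelled line (-0.13). RPS27, a zinc finger protein, lay below 0 in both lines, at 5286 and 3666 FPKM (-0.53) and at 4335 and 3490 FPKM (-0.31), the lowest ratio of the 41 in the NOTCH1-labelled line. RPS27A, made as a fusion with ubiquitin, was at 2520 and 2347 FPKM (-0.10) and at 3127 and 2809 FPKM (-0.15).

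**Figure D2:**
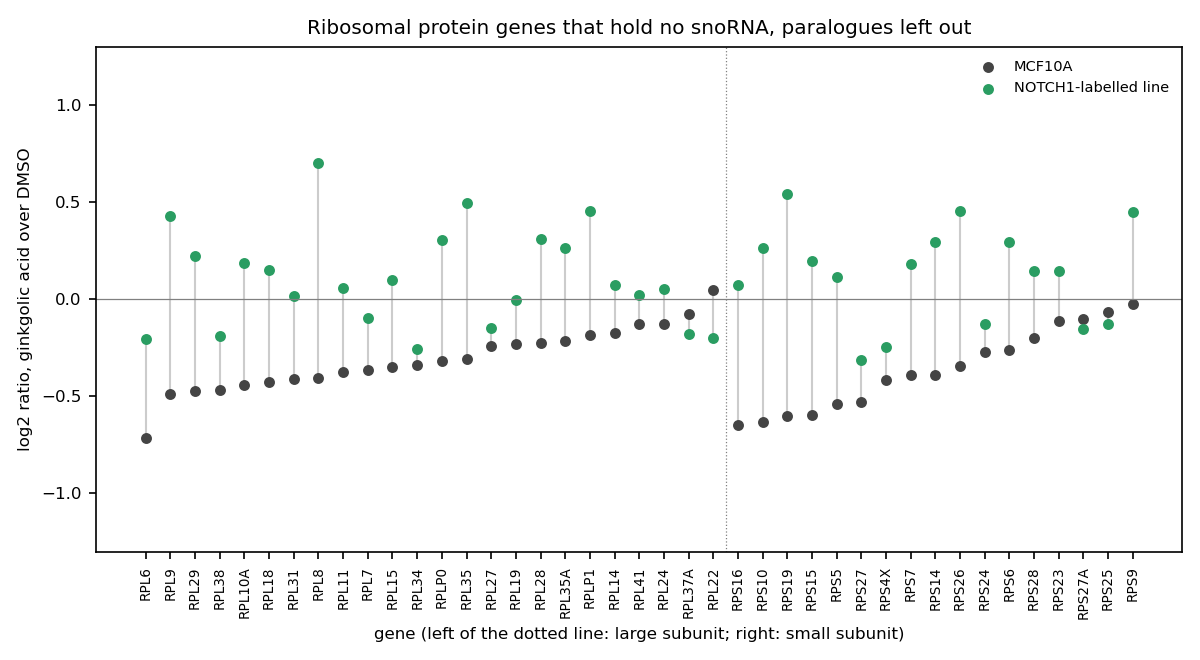
Log2 ratio of ginkgolic acid over DMSO for the 41 ribosomal protein genes without snoRNA or paralogue name, by subunit and ordered by the ratio in MCF10A, with a line joining the 2 cell lines. In MCF10A 40 genes lie below 0, and in the NOTCH1-labelled line 28 lie above 0. Of genes with at least 100 FPKM in either group (not drawn), 61% lay below 0 in MCF10A. In the NOTCH1-labelled line 986 of 1410 such genes lay above 0.

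Most ribosomal proteins, though not those of the stalk, are present in 1 copy per ribosome, while the levels of these 41 genes differed widely within a group. The highest over the lowest was 38.8-fold in MCF10A with DMSO (RPS25 over RPS26), 47.0-fold with ginkgolic acid, 32.4-fold in the NOTCH1-labelled line with DMSO and 23.5-fold with ginkgolic acid. RPS26 was at 274 FPKM with DMSO and 216 with ginkgolic acid in MCF10A, and at 271 and 371 FPKM in the NOTCH1-labelled line. Closely similar processed pseudogenes exist for most of these genes, and the sources used here do not say how fragments that match several copies were assigned.

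The bases around the transcription start were read for the 60 members with an entry in the RefSeq promoter table (GRCh38.p14). A run of at least 6 pyrimidines that overlapped the window from 3 bases before to 10 bases after the start was found in 51 of them (85%), and in 28.6% of the 27305 genes in the table. The motif CTTTC, searched on the sense strand in the 30 bases around the start, was in 46.7% of these members and in 5.49% of all genes, and on either strand in 50% and 9.27%. The motif CTTCC was in 38.3% and 9.12% on the sense strand, and in 45% and 16.9% on either. The motifs can overlap each other and the run, and a match describes the letters alone. The windows below run 15 bases to each side of the start, on the strand of the gene, with the pyrimidine run in capitals. RPS16 and RPL18 stand for members without snoRNA, RPL7A, RPL13A and RPS3 for snoRNA hosts, and RPL22L1 and RPL36AL for paralogues with a tract. RPS27L and RPL7L1 stand for paralogues in which no run of at least 6 was found. Such a run was also not found in RPL15, RPL27, RPL3, RPL6 and RPS4X, which are not paralogues and are not shown.
RPS16, chr19:39435935-39435964, minus strand: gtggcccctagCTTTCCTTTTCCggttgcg
RPL18, chr19:48619164-48619193, minus strand: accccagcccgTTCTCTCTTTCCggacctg
RPL7A, chr9:133348203-133348232, plus strand: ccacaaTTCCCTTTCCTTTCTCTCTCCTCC
RPL13A, chr19:49487593-49487622, plus strand: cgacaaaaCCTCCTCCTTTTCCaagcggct
RPS3, chr11:75399503-75399532, plus strand: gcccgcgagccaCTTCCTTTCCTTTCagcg
RPL22L1, chr3:170870181-170870210, minus strand: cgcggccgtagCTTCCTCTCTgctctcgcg
RPL36AL, chr14:49620612-49620641, minus strand: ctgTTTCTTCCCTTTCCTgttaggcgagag
RPS27L, chr15:63157463-63157492, minus strand: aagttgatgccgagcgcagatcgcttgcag
RPL7L1, chr6:42879601-42879630, plus strand: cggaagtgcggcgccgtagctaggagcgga
Members with a tract and members without one lay on both sides of 0. RPS16 and RPL7A both carry one and had log2 ratios of -0.65 and -2.42 in MCF10A, RPL36AL with a tract had 0.31, and RPS27L and RPL7L1 without it had 0.35 and -1.22.

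Most of the members at least 2-fold lower were host genes. In MCF10A 8 of the 26 hosts were at least 2-fold lower with ginkgolic acid, among them RPL23A, RPL7A, RPL13A, RPL32, RPSA, RPS2 and RPL5, against 15.2% of all genes, with a median over all hosts of -0.48. The NOTCH1-labelled line had 6 such hosts, among them RPL23A, RPL7A, RPL5, RPS20 and RPL13A, with a median of -0.15. In this line 18.9% of all genes were at least 2-fold lower. Every host passed 100 FPKM in each group. Of genes with at least 100 FPKM in either group, 13.1% were at least 2-fold lower in MCF10A and 7.09% in the NOTCH1-labelled line. In neither line was a host at least 2-fold higher, against 24.3% and 18.9% of all genes. The lists shared 5 hosts, RPL23A, RPL7A, RPL13A and RPL5 among them. This is 5 of 8 in MCF10A and 5 of 6 in the NOTCH1-labelled line. The share of all genes that were lower in both lines is not given here, so the overlap is description alone.

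RPL7A, a large-subunit protein whose row spans chromosome 9 from 136215068 to 136218281 (hg19, as the tables give it), had by far the highest value. It was at 1420000 FPKM with DMSO and 265665 with ginkgolic acid in MCF10A (log2 ratio -2.42), and at 341438 and 65157 FPKM in the NOTCH1-labelled line (-2.39). If FPKM were scaled to the mapped total and to a transcript as long as its coding sequence of 798 bases, the first of these values would amount to 113% of all mapped fragments, and the DMSO value of the NOTCH1-labelled line to 27.2%. The sources used here do not give the scaling or the effective length behind the values, so these percentages hold under that assumption alone. RPL13A, which also acts in translational control by the GAIT complex (chromosome 19, 49990810 to 49995565), was at 177577 and 63041 FPKM in MCF10A (-1.49) and at 69708 and 25431 FPKM in the NOTCH1-labelled line (-1.45). RPL23A, which sits at the exit of the peptide tunnel (chromosome 17, 27046410 to 27070473), was at 82505 and 12408 FPKM (-2.73) and at 23543 and 3222 FPKM (-2.87). Each of these 3 genes holds 4 C/D box snoRNAs, and each was at least 2-fold lower in both lines.

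RPL32, with 1 H/ACA snoRNA, was at 37469 and 17498 FPKM in MCF10A (-1.10) and at 21605 and 13419 FPKM in the NOTCH1-labelled line (-0.69). RPSA, a small-subunit protein also known as a laminin receptor, was at 12611 and 5901 FPKM (-1.10) and at 6688 and 4281 FPKM (-0.64). RPS2 was at 3681 and 1738 FPKM (-1.08) and at 1942 and 1432 FPKM (-0.44). These 3 hosts, which hold H/ACA snoRNAs alone, passed 2-fold in MCF10A and not in the NOTCH1-labelled line, and the difference was not tested. RPS20, a protein of the small-subunit head, was at 25423 and 19078 FPKM in MCF10A (-0.41) and at 14487 and 3721 FPKM in the NOTCH1-labelled line (-1.96). RPL5 was at 23038 and 11187 FPKM (-1.04) and at 16914 and 4337 FPKM (-1.96). RPS20 and RPL5 were thus lower by more in the NOTCH1-labelled line. RPS3, a protein at the mRNA entry site with roles in DNA repair, was at 14166 and 9993 FPKM (-0.50) and at 9142 and 9900 FPKM (0.11).

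SnoRNAs of 5 hosts with high values are shown because their host rows carry much of the members' summed level. The sequences are from GENCODE release 29 on GRCh38, in the DNA letters of the RNA strand, with the C box TGATG and the D box CTGA in capitals for the C/D class and the ACA box for the H/ACA class.
SNORD24 in RPL7A, chr9:133349396-133349470, plus strand: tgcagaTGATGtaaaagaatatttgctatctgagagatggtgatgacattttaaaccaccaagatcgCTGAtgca
SNORD36A in RPL7A, chr9:133350456-133350528, plus strand: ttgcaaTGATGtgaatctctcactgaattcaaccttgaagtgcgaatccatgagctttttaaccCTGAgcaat
SNORD33 in RPL13A, chr19:49490615-49490699, plus strand: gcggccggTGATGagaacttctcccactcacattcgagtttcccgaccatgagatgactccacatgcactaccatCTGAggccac
SNORD42A in RPL23A, chr17:28723429-28723492, plus strand: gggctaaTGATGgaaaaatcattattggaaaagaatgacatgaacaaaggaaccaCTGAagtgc
SNORA7A in RPL32, chr3:12840312-12840450, minus strand: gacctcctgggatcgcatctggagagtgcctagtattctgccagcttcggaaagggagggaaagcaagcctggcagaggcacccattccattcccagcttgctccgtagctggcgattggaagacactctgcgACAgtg
SNORA62 in RPSA, chr3:39411054-39411206, plus strand: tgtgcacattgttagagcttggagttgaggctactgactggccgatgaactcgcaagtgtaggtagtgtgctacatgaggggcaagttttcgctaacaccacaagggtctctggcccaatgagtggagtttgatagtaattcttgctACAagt
The 4 C/D snoRNAs shown are 64 to 85 bases long and the H/ACA ones 139 and 153 bases, and none of the 6 has a row of its own in either table.

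Over the members, 42 of the 54 snoRNAs had no row of their own and 12 had one. The 20 hosts with at least 1 snoRNA without a row had median log2 ratios of -0.55 in MCF10A and -0.38 in the NOTCH1-labelled line, and held all hosts that were at least 2-fold lower. The 6 hosts whose snoRNAs all had rows of their own (RPL12, RPL30, RPL37 and RPS12 among them) had medians of -0.36 and 0.04, and levels of at most 5718 FPKM in MCF10A with DMSO. This division of the hosts was made after values had been seen. RPL12, for example, was at 3942 FPKM with DMSO and 4129 with ginkgolic acid in MCF10A (0.07) and at 3790 and 3917 FPKM in the NOTCH1-labelled line (0.05), among the members with the smallest differences in both lines.

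The snoRNA rows gave a reading beside that of their hosts. Of the 12 rows, 10 had a ratio in MCF10A, with 7 below 0, 3 of them at least 2-fold. In the NOTCH1-labelled line 8 had a ratio, with 7 below 0, 5 of them at least 2-fold. Of all genes, from which small RNAs were left out, 47.7% and 47.8% lay below 0 in the 2 lines. At least 2-fold lower were 15.2% and 18.9% of them. SNORD15B, in an intron of RPS3, was at 4049 FPKM with DMSO and 1842 with ginkgolic acid in MCF10A (-1.14) and at 1903 and 351 FPKM in the NOTCH1-labelled line (-2.44), while its host had ratios of -0.50 and 0.11. SNORD15B was thus lower by more than its host in both lines. SNORA65, in RPL12, was higher in both lines, at 6.33 and 29.6 FPKM and at 28.2 and 70.6 FPKM. Short rows such as these can rest on few fragments, and 2 of the 12 in MCF10A and 4 in the NOTCH1-labelled line were listed at 0 in at least 1 group.

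**Figure D3:**
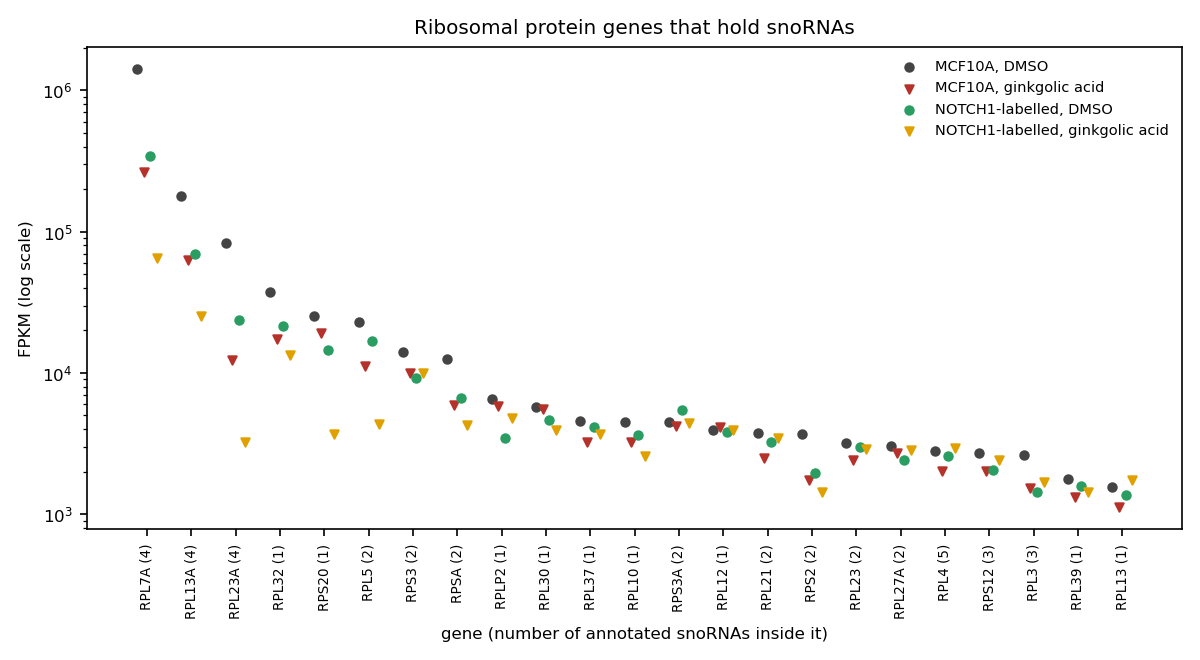
Deposited FPKM (log scale) of 23 of the 26 ribosomal protein genes that hold snoRNAs, ordered by the level in MCF10A with DMSO, with 4 points per gene for the 4 groups and the number of snoRNAs in parentheses. The groups are far apart for RPL7A and RPL23A and close together for most genes from RPLP2 (6511 FPKM) downward.

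The hosts were also divided by level. This division was not in the analysis plan, and its cut was set after values had been seen, so its counts are description alone. The 9 hosts with the highest level in MCF10A with DMSO, from 12611 FPKM upward, had median log2 ratios of -1.10 and -1.72 in the 2 lines, with 7 and 6 of 9 at least 2-fold lower, against 15.2% and 18.9% of all genes. The other 17, at 6511 FPKM or less, had medians of -0.43 and 0.05, with 1 and 0 at least 2-fold lower. The MCF10A DMSO value that ranks the hosts is also the denominator of the MCF10A ratio, so a lower ratio among the high hosts of that line follows in part from the ranking, while it does not enter the ratio of the NOTCH1-labelled line. RPL7A, RPL13A, RPL23A and RPL32 together made up 82.1% of the members' summed FPKM in MCF10A with DMSO and 64.1% with ginkgolic acid. In the NOTCH1-labelled line their part was 67.1% and 37.4%. A sum or mean of FPKM over all members therefore rests largely on a few host rows. The sum over all members was 3.74-fold lower with ginkgolic acid in MCF10A and 2.37-fold lower in the NOTCH1-labelled line, although most members lay within 0.5 of 0 on the log2 scale, 53 of 75 and 62 of 75.

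Paralogues of ribosomal proteins, which can take the place of their near relatives in some tissues, had mixed signs. Of the 9 among the members 8 were measured, and 4 lay above 0 in MCF10A and 3 in the NOTCH1-labelled line. RPS27L, a target of p53, was at 240 FPKM with DMSO and 307 with ginkgolic acid in MCF10A (0.35) and at 259 and 357 FPKM in the NOTCH1-labelled line (0.46). Its share of the summed FPKM of RPS27 and RPS27L was 4.34% with DMSO and 7.72% with ginkgolic acid in MCF10A, and 5.64% and 9.28% in the NOTCH1-labelled line. RPS27L was higher and RPS27 lower with ginkgolic acid in both lines. RPL36AL, a paralogue of RPL36A, was at 289 and 359 FPKM (0.31) and at 417 and 458 FPKM (0.13). RPL22L1 was at 510 and 467 FPKM (-0.12) and at 486 and 390 FPKM (-0.32), and made up 18.3% and 16.5% of the sum with RPL22 in MCF10A and 14.2% and 13.3% in the NOTCH1-labelled line.

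RPL7L1 was the 1 member without a snoRNA that was at least 2-fold lower in both lines, at 63.7 and 27.4 FPKM in MCF10A (-1.22) and at 71.2 and 26.8 FPKM in the NOTCH1-labelled line (-1.41). RPL7 itself was at 2289 and 1781 FPKM (-0.36) and at 1764 and 1651 FPKM (-0.10). RPL26L1 was at 82.3 and 74.6 FPKM in MCF10A (-0.14) and at 55.9 and 103 FPKM in the NOTCH1-labelled line (0.89). It had the highest ratio of all members in the NOTCH1-labelled line and stayed under 2-fold. RPL39L, known from testis and tumours, was at 2.45 and 6.57 FPKM in MCF10A (1.42) and at 2.92 and 2.48 FPKM in the NOTCH1-labelled line (-0.24). RPL3L, known from heart and skeletal muscle, was at 0.835 and 1.60 FPKM in MCF10A (0.94) and at 1.57 and 0.682 FPKM in the NOTCH1-labelled line (-1.20). The levels of RPL39L and RPL3L were within a few FPKM of 0, and a ratio there can rest on few fragments. RPL10L, a testis copy of RPL10, was listed at 0 in both MCF10A groups and at 0.447 FPKM with DMSO and 0.0912 with ginkgolic acid in the NOTCH1-labelled line. RPS10L was at 3.11 and 1.60 FPKM in MCF10A (-0.96) and at 2.49 and 2.42 FPKM in the NOTCH1-labelled line (-0.04).

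Most members had a higher ratio in the NOTCH1-labelled line than in MCF10A. The log2 ratio in the NOTCH1-labelled line minus that in MCF10A had a median of 0.41 over the 75 members, with 59 above 0, 5 at 1 or more and 3 at -1 or less. Over 15527 genes the median was 0.22, with 57.3% above 0, 21.5% at 1 or more and 22.5% at -1 or less. Genes that reached 100 FPKM in either group of both tables had a median of 0.46, with 75.8% above 0 and 24.2% below. The 41 members without snoRNA or paralogue name had a close median of 0.47. A larger part of these lay above 0, 37 of 41, with 9.76% below. With the median of each line's genes removed, the members' median difference was 0.17. The median shift of the members between lines was therefore near that of genes of high level, a set that includes members.

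The 5 members with the lowest difference were RPL3L, RPL39L, RPS20, RPL5 and RPL22, and RPS19, RPL8, RPL26L1 and RPL3 were among the 5 with the highest. RPL3, a protein next to the peptidyl transferase centre and a host of 3 C/D snoRNAs, was at 2624 FPKM with DMSO and 1537 with ginkgolic acid in MCF10A (-0.77) and at 1424 and 1678 FPKM in the NOTCH1-labelled line (0.24). Over all 75 members the responses in the 2 lines had a Pearson correlation of 0.61 and a Spearman correlation of 0.23. Among the 26 hosts these were 0.79 and 0.53, and among the 41 genes without snoRNA or paralogue name -0.11 and -0.09. The genes of a line share its libraries and its scaling, so these values describe the tables and are no test.

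**Figure D4:**
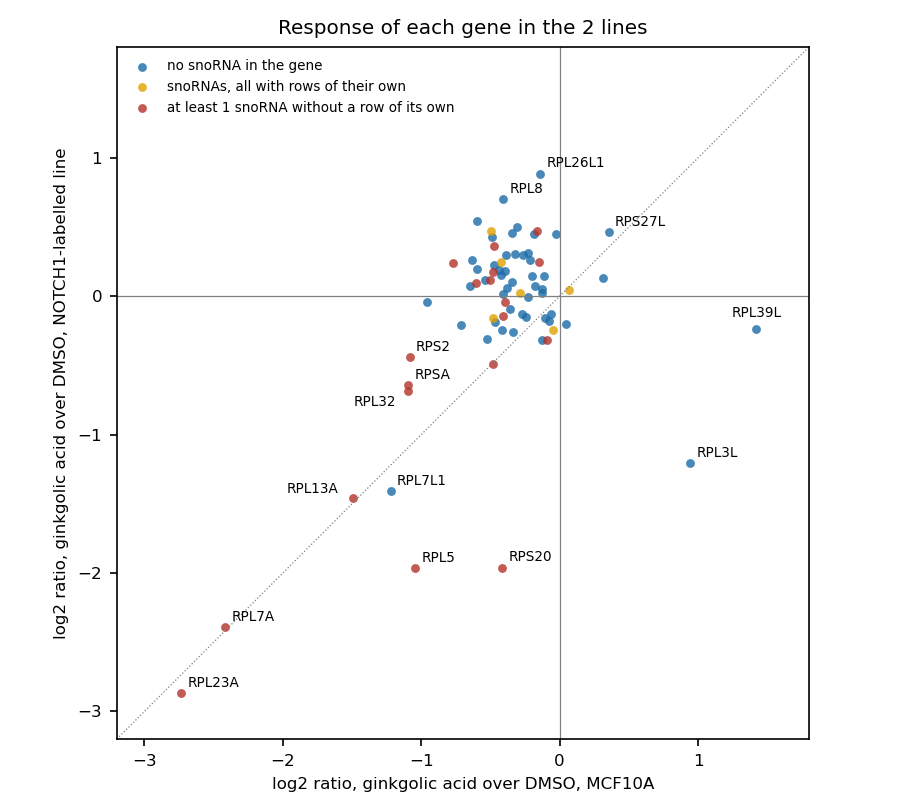
Log2 ratio of ginkgolic acid over DMSO in MCF10A (horizontal axis) and in the NOTCH1-labelled line (vertical axis), 1 point per gene for 74 of the 75 genes, coloured by whether the gene holds snoRNAs and whether these have rows of their own; the dotted line marks equal ratios. RPL7A, RPL23A and RPL13A lie close to the dotted line far below 0, while most genes form a cloud to its upper left.

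Each line has a table of its own, and the sources used here do not say whether these were scaled together. A level in one and a level in the other may therefore differ by an unknown scale. With DMSO, 57 of 75 members were lower in the NOTCH1-labelled line, with a median log2 ratio of -0.22, where all genes had 0.20. Among hosts it was 25 of 26, with a median of -0.44, and among the 41 genes 29, with a median of -0.09. Beyond 2-fold lower were 7 members, against 10.2% of all genes, and 0 were beyond 2-fold higher, against 25.9%. With ginkgolic acid, 27 of 75 members were lower in the NOTCH1-labelled line, with a median of 0.14, where all genes had 0.29. Among the 41 genes 8 were lower, with a median of 0.26. Beyond 2-fold lower were 8 members, against 13.4% of all genes, and 0 were beyond 2-fold higher, against 20.1%.

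Base composition moved with these differences. Over the 41 genes, the GC content of the coding sequence correlated with the ratio of the lines under DMSO (Pearson -0.68) and with the response in the NOTCH1-labelled line (0.54), and less with the response in MCF10A (-0.18). In the 14 genes of highest GC content, from 54.3% to 63.4%, the median log2 ratio of the NOTCH1-labelled over the MCF10A DMSO group was -0.52, and the median difference of the responses was 0.67. For the 13 genes of lowest GC content, from 43.4% to 47.9%, these medians were -0.01 and 0.28. The 14 genes between them had -0.03 and 0.23, so the difference of the responses did not rise evenly with GC content. RPL28, RPS19 and RPS15 had the lowest DMSO ratios between the lines, at -1.05, -1.02 and -1.01. The DMSO value of the NOTCH1-labelled line enters both of these quantities, so they are not independent. Level moved with the response too, with a Pearson correlation of -0.59 between log2 DMSO FPKM and the response in the NOTCH1-labelled line, and 0.25 in MCF10A. The DMSO value is the denominator of the response, which by itself moves such a correlation below 0, so these 2 values are given as description alone. Over 938 genes that reached 100 FPKM in both tables, GC content correlated with the 2 responses at -0.10 and 0.14. With the difference of the responses it correlated at 0.26 over these genes and at 0.52 over the 41. GC content was examined after values had been seen, and its part in the differences between the lines was not tested.

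**Figure D5:**
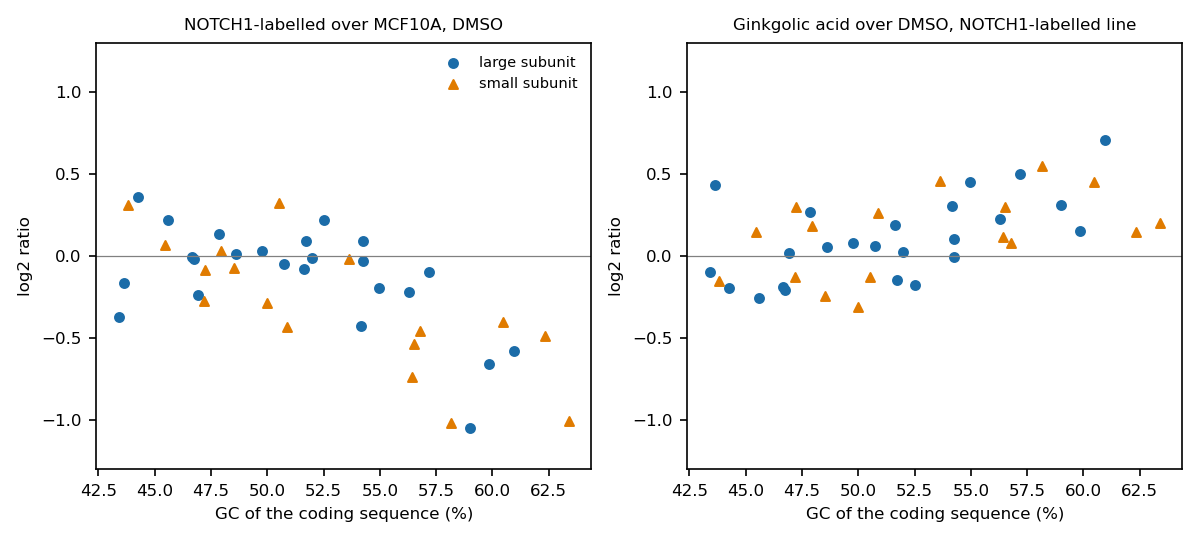
GC content of the coding sequence (percent) of the 41 genes without snoRNA or paralogue name against the log2 ratio of the lines under DMSO (left) and against the log2 ratio of ginkgolic acid over DMSO in the NOTCH1-labelled line (right), 1 point per gene. The points fall with GC content on the left (Pearson -0.68) and climb on the right (0.54).

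RPL5 and RPL11 form the 5S particle with the 5S ribosomal RNA, and binding of this particle to MDM2 stabilizes p53 when ribosome assembly is disturbed. RPL11, which holds no snoRNA, was at 2831 FPKM with DMSO and 2180 with ginkgolic acid in MCF10A (-0.38) and at 2739 and 2855 FPKM in the NOTCH1-labelled line (0.06). RPL5, a host, had ratios of -1.04 and -1.96. In a list of 10 genes of this particle, MDM2 and p53, 3 were at least 2-fold higher and 1 lower in MCF10A, against the 24.3% and 15.2% of all genes. The NOTCH1-labelled line had 2 higher and 2 lower of the 10, against 18.9% of all genes each way, so the counts are near that share. MDM2 itself was at 329 and 201 FPKM in MCF10A (-0.71) and at 483 and 487 FPKM in the NOTCH1-labelled line (0.01). CDKN1A, the cell cycle inhibitor induced by p53, was at 34.6 and 77.3 FPKM in MCF10A (1.16) and at 10.4 and 121 FPKM in the NOTCH1-labelled line (3.53).

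Other genes of the translation machinery, among which snoRNA hosts were not set apart, lay near the members. Of 27 listed translation factors and other genes with a 5′ TOP motif 25 were measured, and their medians were -0.31 in MCF10A and 0.05 in the NOTCH1-labelled line, with 2 and 0 at least 2-fold lower (15.2% and 18.9% of all genes) and 0 higher in both (24.3% and 18.9%). GNB2L1, which encodes the small-subunit scaffold RACK1, was at 12223 FPKM with DMSO and 5449 with ginkgolic acid in MCF10A (-1.17) and at 4949 and 5671 FPKM in the NOTCH1-labelled line (0.20). EIF4A2, an RNA helicase of initiation, was at 7472 and 3660 FPKM (-1.03) and at 3665 and 2906 FPKM (-0.33). GNB2L1 and EIF4A2 were the 2 genes of this list at least 2-fold lower in MCF10A, and whether they hold snoRNAs was not examined. EEF1A1, the elongation factor that brings aminoacyl-tRNA to the ribosome, was at 12300 and 9974 FPKM (-0.30) and at 10773 and 9159 FPKM (-0.23).

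Ribosome biogenesis factors had a wider spread. Of 46 measured, 8 were at least 2-fold lower in MCF10A and 12 in the NOTCH1-labelled line, and 0 and 1 were at least 2-fold higher, with medians of -0.38 and -0.35. Of all genes 15.2% and 18.9% were lower and 24.3% and 18.9% higher, so the 8 lower in MCF10A are near that share. NOP58, a core protein of C/D snoRNA particles whose gene also holds snoRNAs, was at 5199 and 1068 FPKM in MCF10A (-2.28) and at 1211 and 117 FPKM in the NOTCH1-labelled line (-3.37). GRWD1, a large-subunit assembly factor, was at 19.0 and 3.81 FPKM (-2.32) and at 12.1 and 2.29 FPKM (-2.40). Of 23 measured genes that control initiation, 3 were at least 2-fold higher and 4 lower in MCF10A, and 3 higher and 1 lower in the NOTCH1-labelled line, all near or below the same shares of all genes. EIF4EBP1, the cap-binding repressor under mTORC1, was at 26.2 and 138 FPKM in MCF10A (2.40) and at 29.6 and 138 FPKM in the NOTCH1-labelled line (2.22). MYC, a transcription factor that drives many ribosomal genes, was at 105 and 35.2 FPKM in MCF10A (-1.58) and at 69.5 and 79.0 FPKM in the NOTCH1-labelled line (0.18).

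Some ribosomal protein genes fell outside the rule. RPS18 was on 7 rows, 6 of them at 0, and its row on chromosome 6 was at 2799 FPKM with DMSO and 2132 with ginkgolic acid in MCF10A (-0.39) and at 2350 and 2588 FPKM in the NOTCH1-labelled line (0.14), close to the medians of the members. A further 9 symbols stood on rows joined with other genes, among them RPS13, RPL17, RPL26, RPL36 and RPL36A, and 7 of the 9 were below 0 in MCF10A and 8 in the NOTCH1-labelled line. The joined row with RPL17, which encompasses 3 C/D snoRNAs, was at 282361 and 109467 FPKM in MCF10A (-1.37) and at 112959 and 17998 FPKM in the NOTCH1-labelled line (-2.65). The joined row with RPS13 was at 6642 and 1614 FPKM (-2.04) and at 1604 and 943 FPKM (-0.77). The joined row with RPL26 was at 5313 and 4134 FPKM (-0.36) and at 4931 and 3758 FPKM (-0.39). A joined row sums several genes, and the part of each cannot be told apart.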

How the data were processed

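Total RNA came from RNeasy columns, and the library kit was ScriptSeq Complete Gold, per the labels' protocols. The submitters' processing notes name Cuffdiff 2.1.1, Cufflinks 2.1.1, Bowtie2 2.1.0 and TopHat2 2.0.8b and the build GRCh37 (hg19). The sources used here do not give the annotation, the settings or how samples were combined. The deposited values are FPKM, 1 per gene and group, per the file headers, so no replicate error, depth or interval can be given. Symbols were matched in Python 3.11.15 with pandas 2.3.3. Ratios were log2 of FPKM without a pseudocount for members with at least 1 FPKM in either group; a gene at 0 in a group got no ratio. GENCODE release 29 (GRCh38) gave snoRNAs and coding sequences for 76 of the 77 members, and RefSeq (GRCh38.p14) the start sites.

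The analysis plan took q-values or a fitted test where the tables had values per sample; they do not, so the 2-fold rule stood in. The members and lists were chosen with earlier results of these data known. Named genes were the 5 highest and 5 lowest ratios per line, the 5 largest differences between lines each way, the 5 highest and 3 lowest DMSO levels, a fixed set of members with NOTCH1 and MYC, and up to 4 genes per other list. Other genes named, such as RPL6, RPL9, RPS9, RPS16, RPS26, RPS2, RPL28 and RPS15, were chosen after their values were seen. Some genes that these rules name are not reported here. Other settings were minima of 0 and 5 FPKM, a pseudocount of 1, removal of the median gene, other member sets, means, a 1.5-fold rule and shares of the members' sum. Ratio and count code was tested on simulated data.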

Additional observations from a re-analysis of the deposited data

How the results depend on the processing

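No paired analysis was possible because the tables hold 1 value per gene and group, and for the same reason no sample could be left out. With no replicate spread, a log2 value was taken as unmoved within 0.1 and a count within 1.5 times. Removal of the median gene gave members' medians of -0.29 in MCF10A and -0.088 in the NOTCH1-labelled line, which turned its sign, a median difference of 0.17, and in MCF10A 2 members at least 2-fold higher and 5 lower. The mean turned the NOTCH1-labelled value to -0.13. Without genes that hold small RNAs, 1 member was at least 2-fold lower in MCF10A and 2 in the NOTCH1-labelled line, and the same numbers were left without snoRNA hosts alone, a setting added after seeing the data. Without paralogues 0 members were at least 2-fold higher in MCF10A. At 1.5-fold, 2 members were higher and 17 lower in MCF10A, and 2 higher and 10 lower in the NOTCH1-labelled line, where 34.1%, 26.7%, 31.2% and 29% of all genes were. Of the 76 members with a gene model none had a longest transcript under 600 bases, so that setting left out none. As shares of the members' summed FPKM, in which RPL7A has the highest value, 66 of 75 ratios in MCF10A and 26 of 75 in the NOTCH1-labelled line changed sign. Among members at least 2-fold different, 6 in MCF10A turned, to 0.41 for RPL13A, 0.81 for RPL32, 0.86 for RPL5, 0.68 for RPL7L1, 0.82 for RPS2 and 0.81 for RPSA, and 1 in the NOTCH1-labelled line, to 0.0417 for RPL3L. As shares of the sum without snoRNA hosts, added after seeing the data, 22 ratios in MCF10A and 0 in the NOTCH1-labelled line changed sign, none of them at least 2-fold.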

Other observations

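Processed pseudogenes of ribosomal proteins, inserted copies of their messenger RNAs, had 563 rows in each table. At least 1 FPKM in either group was reached by 259 in MCF10A and 290 in the NOTCH1-labelled line. The median log2 ratio of ginkgolic acid over DMSO was -0.25 over 200 pseudogenes with a ratio in MCF10A, with 42 at least 2-fold higher and 45 lower, and 0.26 over 225 in the NOTCH1-labelled line, with 59 higher and 47 lower. Among all genes 24.3% were at least 2-fold higher and 15.2% lower in MCF10A, and 18.9% each way in the NOTCH1-labelled line. The signs of these medians were those of the members without snoRNA. Medians and counts leave out pseudogenes at 0 in a group, which have no ratio. In MCF10A 43 were at 0 with DMSO and 16 with ginkgolic acid, and in the NOTCH1-labelled line 25 and 40. Most of those left out thus went against the sign of the median in each line, so these signs depend on that filter. The summed pseudogene level was 922 FPKM with DMSO and 957 with ginkgolic acid in MCF10A and 1066 and 1061 FPKM in the NOTCH1-labelled line, small beside that of the genes. RPS3AP5, a copy of RPS3A, had the highest level, at 103 FPKM with DMSO and 83.4 with ginkgolic acid in MCF10A (-0.30) and at 128 and 123 FPKM in the NOTCH1-labelled line (-0.06). Fragments of a gene and of its copies can match both, and the sources used here do not say how the authors assigned them.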
